A study of Mus musculus with 10 samples.

Results

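Genes of the urea cycle and of amino acid breakdown were compared between the livers of mice that overexpressed the histone demethylase Phf2 and those of mice that overexpressed GFP. The list held 34 genes in 8 pathways. Of these, 31 were read by an array feature that the platform annotation names with their symbol alone, out of 19938 genes read in this way, and each gene was represented by its feature with the highest mean over all 10 arrays. Ass1, which joins citrulline to aspartate, was named only together with a predicted gene and has no value here, and Gls2 and Sds were not analysed here. The animals were male C57BL/6J mice, 8 weeks old at injection, which received an adenovirus through the tail vein, with livers taken in the fed state after 3 weeks. The virus encoded Phf2 in 5 mice and GFP, a fluorescent protein, in the 5 controls, so that all 10 livers had received adenovirus. The promoter of the adenoviral inserts is not named in the sources used here. Each liver was measured on 1 Affymetrix Gene ST array, and the arrays of a group are biological replicates in the sample labels. All levels below are log2 values after RMA, the authors' normalization of the arrays, and differences are given as Phf2 mean minus GFP mean, the log2 fold change. A gene was called when its adjusted p from limma, corrected by the Benjamini-Hochberg method over all 19938 genes, was under 0.05.

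The liver disposes of the nitrogen of dietary and body protein. Amino acids lose their amino group, mostly to glutamate, which releases it as ammonia, and hepatocytes near the portal vein turn this ammonia into urea through a cycle that spans the mitochondrion and the cytosol. The remaining carbon skeletons are broken down by separate routes for each amino acid and feed glucose production, ketone bodies or the citric acid cycle.

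Most of these genes were lower in Phf2 livers. Of the 31 genes, 21 were called lower and none higher, against 4.24% of all genes called lower and 5.43% called higher. The count depended on the arrays and the test. It was 13 without Phf2 replicate 2, 3 or 4, and 6 with the methods' t-test after the same Benjamini-Hochberg adjustment. It was 2 without the 3 arrays highest in markers of pancreas, a setting chosen after seeing the data. Calls lower over all 19938 genes fell as well, from 846 to 571, 654 and 582 without Phf2 replicates 2, 3 and 4. They were 616 with the methods' test and 230 without the 3 arrays. In each setting they fell proportionally less than the calls of the 31 genes. In the main fit, 7.67% were called lower among the 9970 genes in the upper part of the levels, split at the median of mean level. Counts by pathway below are read against these shares, and 1 call among a few genes is no result about a pathway. The median log2 fold change of the 31 genes was -0.43, against -0.0149 over all genes, and 28 of the 31 had a negative value, each of them with an unadjusted p under 0.05, which none of the 3 positive values reached. In 14 genes the highest of the 5 Phf2 arrays was below the lowest of the 5 GFP arrays, a separation seen in 4.36% of all genes, and none showed the opposite separation, against 4.71%. At the thresholds of the study, 1.5-fold and an unadjusted p under 0.05, 10 of the 31 genes were lower and none higher, against 1.16% and 2.38% of all genes. The called falls were moderate, from 1.23-fold in Aldh7a1 to 1.78-fold in Tat, with Hal beyond them at 3.00-fold. In bulk liver RNA, fewer hepatocytes and less RNA per hepatocyte cannot be told apart.

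**Figure D1:**
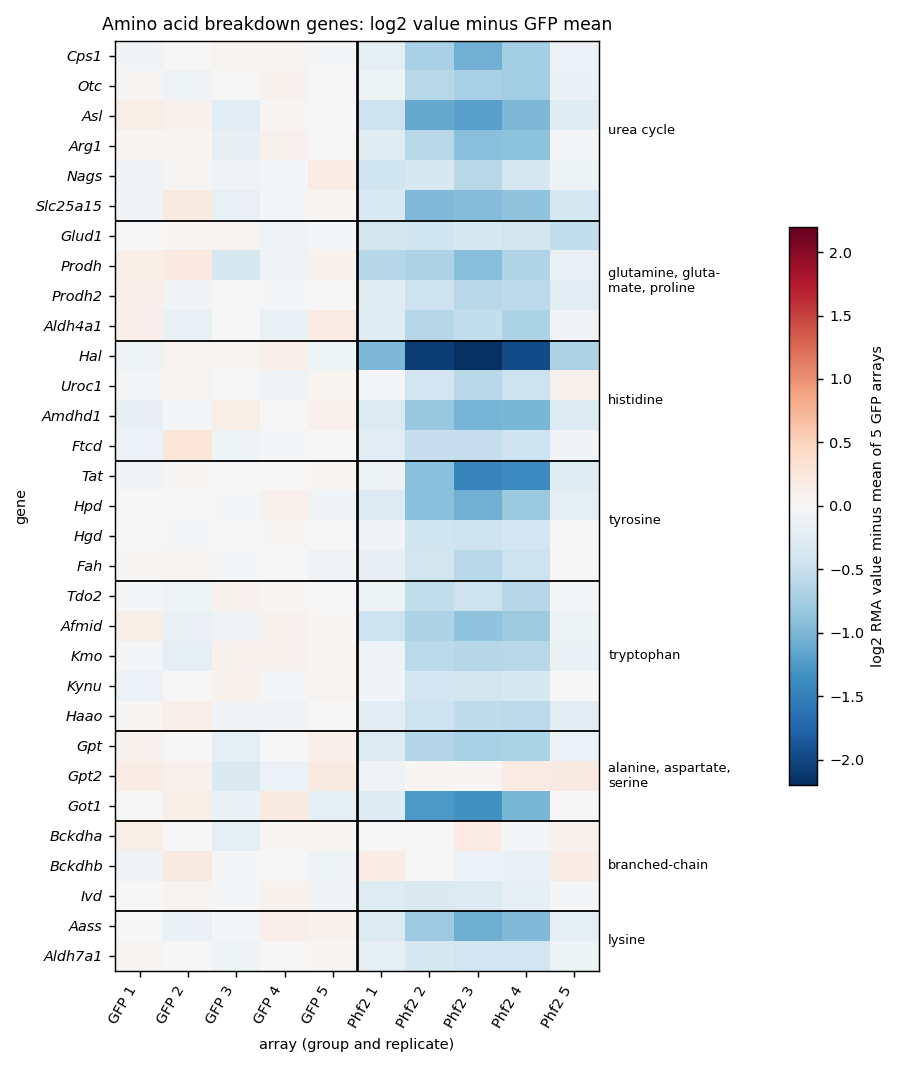
Level of the 31 genes (rows, by pathway) on each of the 10 arrays (columns), as log2 RMA value minus the mean of the 5 GFP arrays; blue is lower and red higher. Blue fills most rows of Phf2 replicates 2, 3 and 4, is paler in Phf2 replicates 1 and 5, and is nearly missing from Gpt2, Bckdha and Bckdhb.

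All 6 urea cycle genes that were read were lower in Phf2 livers, by 1.30-fold to 1.75-fold. Cps1 encodes the mitochondrial enzyme that fixes ammonia as carbamoyl phosphate, the entry step of the cycle. Its log2 values were 12.15, 12.21, 12.27, 12.27 and 12.17 in GFP mice, against 12.01, 11.50, 11.16, 11.46 and 12.08 in Phf2 mice. No Phf2 array reached the GFP range, narrowly so in replicates 1 and 5, and Cps1 fell by 0.57 log2 units (SE 0.15, limma adjusted p = 0.032). Nags makes N-acetylglutamate, without which Cps1 is inactive. The GFP arrays gave 6.75, 6.86, 6.75, 6.81 and 7.01 and the Phf2 arrays 6.39, 6.49, 6.22, 6.45 and 6.73. The groups were narrowly apart, with Phf2 replicate 5 next to the lowest GFP array, and a fall of 0.38 (SE 0.09, limma adjusted p = 0.0188). Otc, on the X chromosome, joins carbamoyl phosphate to ornithine to give citrulline. Levels of Otc were 10.67, 10.56, 10.64, 10.72 and 10.66 on the GFP arrays and 10.53, 10.03, 9.93, 9.89 and 10.49 on the Phf2 arrays. Its groups did not overlap either, and it fell by 0.47 (SE 0.12, limma adjusted p = 0.0312).

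Slc25a15, the carrier that brings ornithine back into the mitochondrion, was among the clearer falls of the cycle. In GFP livers Slc25a15 lay at 8.99, 9.25, 8.90, 9.03 and 9.09, and in Phf2 livers at 8.71, 8.07, 8.10, 8.16 and 8.66. Every Phf2 array was below every GFP array, and the gene fell by 0.71 (SE 0.13, limma adjusted p = 0.00491). Asl splits argininosuccinate into arginine and fumarate. Asl read 10.72, 10.70, 10.37, 10.62 and 10.59 in the 5 GFP livers and 10.14, 9.48, 9.40, 9.62 and 10.34 in the 5 Phf2 livers. It had the largest fall of the 6 genes, 0.80 (SE 0.17, limma adjusted p = 0.00892), with no overlap between the groups. Arg1, the liver arginase that releases urea, completes the cycle. Its log2 values were 11.54, 11.55, 11.33, 11.60 and 11.48 in GFP mice, against 11.24, 10.90, 10.59, 10.60 and 11.46 in Phf2 mice. Phf2 replicate 5 lay within the GFP range and the other 4 Phf2 arrays below it, and Arg1 fell by 0.54 (SE 0.15, limma adjusted p = 0.0419). The calls of Asl, Nags and Slc25a15 held whichever single array was left out, whereas Cps1 and Otc each lost theirs in 8 of 10 such fits and Arg1 in 7. In all 3 genes these were the fits without Phf2 replicate 2, 3 or 4 and most of those without a GFP array. The limma adjusted p of Cps1, Otc and Arg1 then reached 0.0856, 0.0829 and 0.106.

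**Figure D2:**
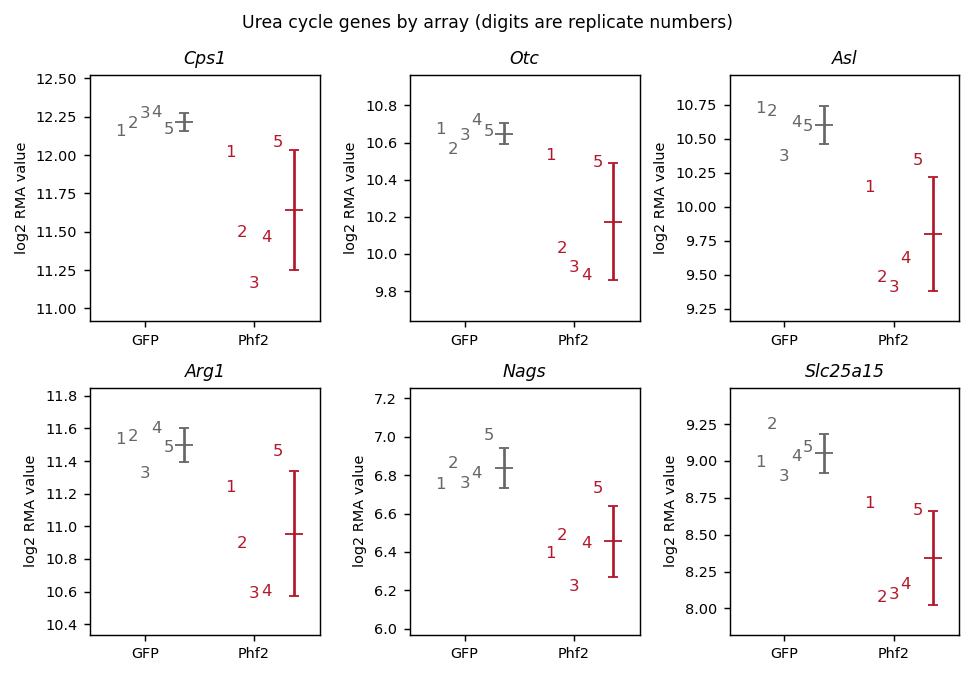
Log2 RMA value of the 6 urea cycle genes in GFP (grey) and Phf2 (red) livers; each digit is 1 array at its replicate number, and the bar gives the mean and SD of 5 arrays. The vertical axis differs between panels and does not start at 0. The GFP arrays sit close together, and Phf2 replicates 1 and 5 lie nearest to them in all panels but that of Nags.

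Of 6 other genes that serve the cycle, 2 were called lower and none higher, against 4.24% and 5.43% of all genes. Slc25a13, the carrier that exports aspartate from the mitochondrion for the cycle, read 8.61, 8.86, 8.55, 8.68 and 8.67 in GFP livers and 8.06, 7.73, 7.71, 7.75 and 8.10 in Phf2 livers. The groups were well apart, with a fall of 0.80 (SE 0.09, limma adjusted p = 0.000232). Car5a, the mitochondrial carbonic anhydrase that supplies bicarbonate to Cps1, fell by 1.01 (SE 0.17, limma adjusted p = 0.00298), with 8.47 ± 0.27 (SD, n = 5) in GFP and 7.47 ± 0.38 (SD, n = 5) in Phf2 livers. Got2, the mitochondrial aspartate aminotransferase, had a log2 fold change of -0.14 (SE 0.06, limma adjusted p = 0.227) and was not called, and neither were Slc25a2, Arg2 and Sirt5.

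The genes read for the breakdown of glutamate, proline and hydroxyproline were called lower in all 4 cases, against 4.24% of all genes. Glud1, glutamate dehydrogenase, frees ammonia from glutamate. The GFP arrays gave 10.87, 10.90, 10.92, 10.77 and 10.83 and the Phf2 arrays 10.46, 10.41, 10.51, 10.46 and 10.32. Its SD among Phf2 livers, 0.07, was the lowest of the 31 genes, with replicate 5 the lowest array, and it fell by 0.42 (SE 0.06, limma adjusted p = 0.000655). Its call held whichever array was left out, and its adjusted p was the smallest of the 31 genes. Prodh opens the breakdown of proline. Levels of Prodh were 8.54, 8.63, 8.05, 8.34 and 8.50 on the GFP arrays and 7.79, 7.74, 7.47, 7.75 and 8.25 on the Phf2 arrays. Phf2 replicate 5 lay within the GFP range, and Prodh fell by 0.61 (SE 0.14, limma adjusted p = 0.0148). Prodh2 does the same for hydroxyproline. In GFP livers Prodh2 lay at 7.70, 7.53, 7.61, 7.55 and 7.60, and in Phf2 livers at 7.33, 7.15, 6.98, 7.02 and 7.37. These groups did not overlap, and the fall was 0.43 (SE 0.08, limma adjusted p = 0.00612). Aldh4a1, which finishes both routes by making glutamate or its hydroxylated form, followed. Aldh4a1 read 7.67, 7.38, 7.56, 7.40 and 7.73 in the 5 GFP livers and 7.28, 6.93, 7.01, 6.85 and 7.47 in the 5 Phf2 livers. Phf2 replicate 5 again lay within the GFP range, the fall was 0.44 (SE 0.12, limma adjusted p = 0.0349), and the call was lost in 6 of 10 fits that left out an array, among them those without Phf2 replicate 2, 3 or 4, with an adjusted p of up to 0.0932. Of 5 other genes of these routes 1 was called, Hoga1, the aldolase at the end of hydroxyproline breakdown, which fell by 0.78 (SE 0.11, limma adjusted p = 0.00071). Glul, which makes glutamine in hepatocytes around the central vein, was not called, with 11.57 ± 0.08 (SD, n = 5) in GFP and 11.60 ± 0.08 (SD, n = 5) in Phf2 livers and a log2 fold change of 0.03 (95% interval -0.11 to 0.17). Oat, which moves ornithine into glutamate, had a log2 fold change of -0.51 (SE 0.16, limma adjusted p = 0.0735) and was not called.

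Histidine breakdown held the largest change among the 31 genes. Hal, histidine ammonia-lyase, removes the amino group of histidine as ammonia. Its log2 values were 10.46, 10.61, 10.57, 10.66 and 10.46 in GFP mice, against 9.56, 8.45, 8.34, 8.58 and 9.88 in Phf2 mice. Phf2 replicates 2, 3 and 4 lay far below the GFP arrays and replicates 1 and 5 in between. Hal fell by 1.59, or 3.00-fold (SE 0.26, limma adjusted p = 0.00224), and the call held under every alternative setting. Uroc1 catalyses the next step and was not called. The GFP arrays gave 7.58, 7.66, 7.60, 7.53 and 7.64 and the Phf2 arrays 7.56, 7.17, 7.00, 7.13 and 7.70. Phf2 replicate 1 lay within the GFP range, replicate 5 just above it and the other 3 below it, which gave a log2 fold change of -0.29 (SE 0.12, limma adjusted p = 0.169). Amdhd1, the imidazolonepropionase of the third step, is the neighbour of Hal on chromosome 10, with no protein-coding gene between them in the RefSeq annotation. Levels of Amdhd1 were 8.73, 8.87, 9.05, 8.92 and 9.00 on the GFP arrays and 8.61, 8.09, 7.89, 7.91 and 8.62 on the Phf2 arrays. It fell by 0.69 (SE 0.15, limma adjusted p = 0.0102) without overlap. Ftcd, which passes the last carbon fragment to folate, closes the route. In GFP livers Ftcd lay at 7.98, 8.37, 8.01, 8.06 and 8.12, and in Phf2 livers at 7.87, 7.60, 7.58, 7.66 and 8.04. Phf2 replicate 5 lay within the GFP range and the fall was 0.36 (SE 0.10, limma adjusted p = 0.0473), a call lost in 9 of 10 fits that left out an array, all but that without Phf2 replicate 5, with an adjusted p of up to 0.121.

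Of the 4 tyrosine genes, 2 were called lower, against 4.24% of all genes. Tat, tyrosine aminotransferase, is a classical target of glucocorticoids and glucagon and starts the route. Tat read 12.08, 12.17, 12.15, 12.13 and 12.18 in the 5 GFP livers and 12.03, 11.23, 10.68, 10.75 and 11.88 in the 5 Phf2 livers. The GFP arrays sat within a narrow range, whereas the Phf2 arrays ranged from just below them to 10.68, and Tat fell by 0.83 (SE 0.23, limma adjusted p = 0.0407). The call was lost in 8 of 10 fits without 1 array, among them those without Phf2 replicate 2, 3 or 4, with an adjusted p of up to 0.101. Hpd makes homogentisate. Its log2 values were 11.83, 11.85, 11.80, 11.92 and 11.77 in GFP mice, against 11.54, 10.92, 10.79, 11.02 and 11.64 in Phf2 mice. Its groups did not overlap, and it fell by 0.65 (SE 0.15, limma adjusted p = 0.015). The last enzymes, Hgd and Fah, the latter the gene of hereditary tyrosinaemia, were not called. Hgd lay at 11.38 ± 0.02 (SD, n = 5) in GFP and 11.10 ± 0.23 (SD, n = 5) in Phf2 livers, with a log2 fold change of -0.28 (SE 0.10, limma adjusted p = 0.0984). Fah lay at 10.71 ± 0.05 (SD, n = 5) in GFP and 10.38 ± 0.24 (SD, n = 5) in Phf2 livers, with -0.33 (SE 0.10, limma adjusted p = 0.0618). In both, Phf2 replicate 5 read within the GFP range and replicates 1, 2, 3 and 4 below it. Of 3 other genes of the route 1 was called, Gstz1, which acts between Hgd and Fah and fell by 0.39 (SE 0.11, limma adjusted p = 0.0483).

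In tryptophan breakdown along the kynurenine route, 3 of 5 genes were called lower, against 4.24% of all genes. Tdo2 opens the ring of tryptophan and was not called. It lay at 11.89 ± 0.06 (SD, n = 5) in GFP and 11.54 ± 0.27 (SD, n = 5) in Phf2 livers, a log2 fold change of -0.35 (SE 0.11, limma adjusted p = 0.0686). Afmid, which hydrolyses the product to kynurenine, was lower. The GFP arrays gave 8.24, 7.96, 8.04, 8.18 and 8.14 and the Phf2 arrays 7.63, 7.43, 7.23, 7.33 and 8.01. Phf2 replicate 5 lay within the GFP range, and the fall was 0.59 (SE 0.13, limma adjusted p = 0.0113). Kmo hydroxylates kynurenine. Levels of Kmo were 10.66, 10.48, 10.77, 10.76 and 10.73 on the GFP arrays and 10.61, 10.10, 10.05, 10.07 and 10.53 on the Phf2 arrays. Phf2 replicates 1 and 5 lay within the GFP range, the fall was 0.41 (SE 0.12, limma adjusted p = 0.0479), and the call was lost in 7 of 10 fits without 1 array, among them those without Phf2 replicate 2, 3 or 4, with an adjusted p of up to 0.125. Kynu, kynureninase, was not called, with 11.09 ± 0.09 (SD, n = 5) in GFP and 10.84 ± 0.21 (SD, n = 5) in Phf2 livers and a log2 fold change of -0.24 (SE 0.09, limma adjusted p = 0.143). Haao makes the precursor of quinolinate, from which NAD can be built. In GFP livers Haao lay at 10.31, 10.39, 10.23, 10.23 and 10.28, and in Phf2 livers at 10.05, 9.81, 9.73, 9.72 and 10.04. Its groups did not overlap, and it fell by 0.42 (SE 0.08, limma adjusted p = 0.00572).

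Of 6 other genes of this route and its side branches, 3 were called lower and none higher, against 4.24% and 5.43% of all genes. Ido2, a second enzyme that can open the tryptophan ring, fell by 0.82 (SE 0.12, limma adjusted p = 0.00133). Kyat1, an aminotransferase that turns kynurenine into kynurenate, fell by 0.82 (SE 0.16, limma adjusted p = 0.00683). Aadat, which acts on kynurenine and on the lysine product aminoadipate, read 9.33, 9.26, 8.98, 9.36 and 9.35 in GFP livers and 8.58, 8.13, 7.77, 7.88 and 8.69 in Phf2 livers. Its groups did not overlap, and it fell by 1.04, or 2.06-fold (SE 0.17, limma adjusted p = 0.00188). The remaining 3 were not called, with log2 fold changes of -0.67 for Acmsd (SE 0.24, limma adjusted p = 0.116), -0.18 for Qprt (SE 0.08, limma adjusted p = 0.172) and -0.13 for Kyat3 (SE 0.10, limma adjusted p = 0.519).

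Of the 3 aminotransferases of alanine and aspartate 1 was called lower and none higher, against 4.24% and 5.43% of all genes. Gpt, the alanine aminotransferase of the cytosol, was lower. Gpt read 8.45, 8.36, 8.17, 8.39 and 8.49 in the 5 GFP livers and 8.08, 7.73, 7.65, 7.68 and 8.24 in the 5 Phf2 livers. Phf2 replicate 5 lay within the GFP range, and Gpt fell by 0.50 (SE 0.12, limma adjusted p = 0.0167). Gpt2, its mitochondrial counterpart, was not called. Its log2 values were 8.46, 8.39, 7.98, 8.17 and 8.49 in GFP mice, against 8.22, 8.34, 8.33, 8.47 and 8.49 in Phf2 mice. All Phf2 arrays but the highest lay within the GFP range, and the log2 fold change was 0.07 (95% interval -0.15 to 0.29, adjusted p = 0.747 from limma). Got1, the cytosolic aspartate aminotransferase, had one of the larger differences but the widest scatter among Phf2 livers after Hal and Tat. The GFP arrays gave 10.78, 10.89, 10.62, 10.97 and 10.57 and the Phf2 arrays 10.49, 9.51, 9.44, 9.75 and 10.77. Replicate 5 lay at the GFP mean and replicates 2, 3 and 4 far below it, and a log2 fold change of -0.77 (SE 0.23, limma adjusted p = 0.0536) was not called. Of 5 other genes of this pathway 1 was called, Agxt, which disposes of glyoxylate with alanine as amino donor. It read 8.35, 8.54, 8.58, 8.64 and 8.76 in GFP livers and 7.71, 6.64, 6.45, 6.89 and 7.76 in Phf2 livers. Even the highest Phf2 array lay well below the lowest GFP array, and Agxt fell by 1.48, or 2.8-fold (SE 0.23, limma adjusted p = 0.00161). The other 4 were not called, with log2 fold changes of -0.35 for Gcat, -0.34 for Asns, 0.07 for Agxt2 and 0.16 for Aspg.

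Of the 3 listed genes of branched-chain amino acid breakdown, limma called none, and 1 of them, Ivd, was lower at an unadjusted p under 0.05. Bckdha and Bckdhb encode the subunits of the branched-chain ketoacid dehydrogenase that bind and decarboxylate the substrate. Bckdha read 6.81, 6.66, 6.49, 6.70 and 6.73 in the 5 GFP livers and 6.69, 6.69, 6.85, 6.63 and 6.76 in the 5 Phf2 livers. Bckdhb read 8.84, 9.12, 8.91, 8.93 and 8.84 in the 5 GFP livers and 9.08, 8.91, 8.80, 8.79 and 9.10 in the 5 Phf2 livers. The groups overlapped throughout in both genes, and the log2 fold changes were 0.05 for Bckdha (95% interval -0.11 to 0.20) and 0.01 for Bckdhb (95% interval -0.17 to 0.19). The sign of Bckdhb turned when each array was centred on its median and after a further quantile normalization. Ivd, which oxidises the leucine product isovaleryl-CoA, lay at 8.49 ± 0.06 (SD, n = 5) in GFP and 8.27 ± 0.12 (SD, n = 5) in Phf2 livers, with a log2 fold change of -0.22 (SE 0.07, limma adjusted p = 0.0629), and was not called.

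Other genes of the same route were not all at the GFP level. Of 17 tested, 7 were called lower, none higher, and 10 were not called, against 4.24% of all genes called lower and 5.43% higher. Dbt, the core of the same dehydrogenase, read 9.64, 9.67, 9.59, 9.57 and 9.60 in GFP livers and 9.23, 8.92, 8.82, 8.89 and 9.30 in Phf2 livers. Every Phf2 array was below every GFP array, and Dbt fell by 0.58 (SE 0.09, limma adjusted p = 0.00191). Ppm1k, the phosphatase that switches the complex on, fell by 1.07, or 2.1-fold (SE 0.20, limma adjusted p = 0.00471), whereas Bckdk, the kinase that switches it off, was not called. Acadsb, which oxidises the isoleucine product, fell by 0.74 (SE 0.10, limma adjusted p = 0.000596). Pccb, a subunit of propionyl-CoA carboxylase, fell by 0.53 (SE 0.07, limma adjusted p = 0.000613), and Pcca, its partner subunit, was not called. Mccc2, Hibadh and Aldh6a1 were the remaining genes called.

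Both listed genes of lysine breakdown were called lower, against 4.24% of all genes. Aass, the enzyme that joins lysine to ketoglutarate and splits the product, starts the mitochondrial route. Aass read 10.39, 10.24, 10.36, 10.49 and 10.47 in the 5 GFP livers and 10.09, 9.59, 9.32, 9.42 and 10.18 in the 5 Phf2 livers. The groups did not overlap, and Aass fell by 0.67 (SE 0.15, limma adjusted p = 0.016). Aldh7a1, antiquitin, oxidises the semialdehyde that follows. Its log2 values were 10.59, 10.53, 10.44, 10.51 and 10.57 in GFP mice, against 10.32, 10.17, 10.10, 10.11 and 10.41 in Phf2 mice. It fell by 0.30 (SE 0.07, limma adjusted p = 0.0185) without overlap, and the call was lost without Phf2 replicate 2, 3 or 4, with an adjusted p of up to 0.0552. Of the other 4 lysine genes 3 were called lower, against 4.24% of all genes, and Gcdh was not. Dhtkd1, which acts on the ketoadipate that Aadat makes, fell by 0.57 (SE 0.13, limma adjusted p = 0.0167). Hykk, the hydroxylysine kinase, fell by 0.69 (SE 0.11, limma adjusted p = 0.00187). Pipox, of the peroxisomal pipecolate route, fell by 0.35 (SE 0.07, limma adjusted p = 0.00744).

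**Figure D3:**
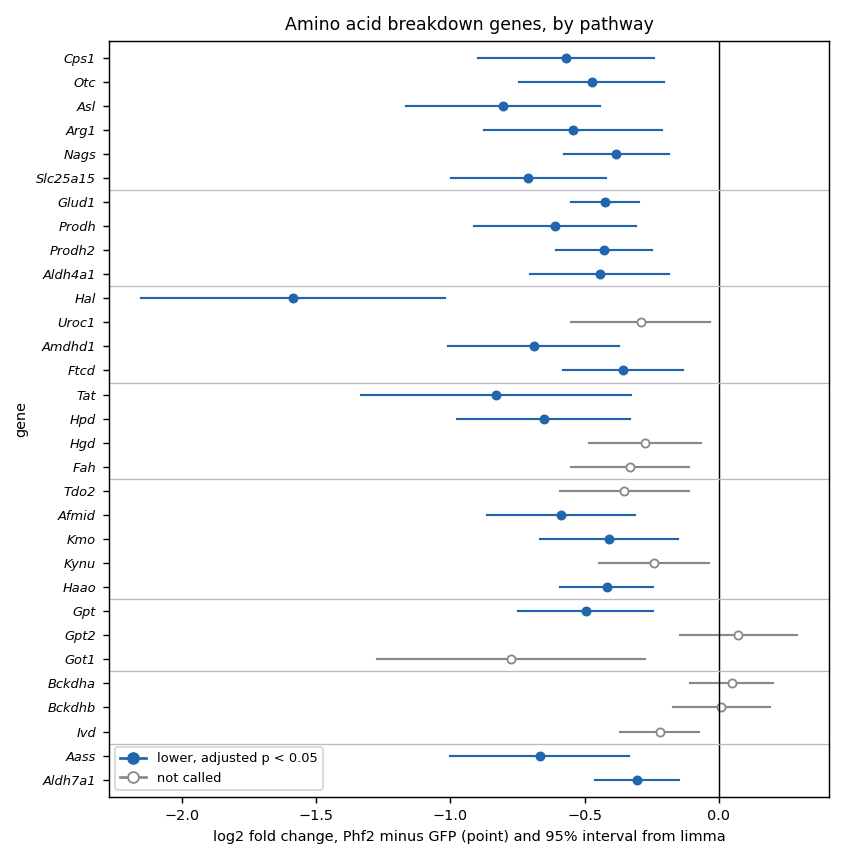
Log2 fold changes of the 31 genes (horizontal axis, Phf2 minus GFP) with 95% intervals from limma, in pathway order; filled blue points were called lower and open grey points were not called. The point of Hal lies farthest to the left, and the points of Gpt2, Bckdha and Bckdhb lie just right of 0.

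In all, 18 of 46 other genes of these pathways were called lower and none higher, with a median log2 fold change of -0.31. This share is read against the same 4.24% of all genes called lower. Among the 28 that were not called were Glul, Got2, Slc25a2, Arg2 and Sirt5. The other 6 of 52 listed genes were not analysed here.

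Of 20 amino acid transporters, 4 were called lower and 1 higher, against 4.24% and 5.43% of all genes, so that the share called higher was close to that of all genes. The median log2 fold change of the 20 was 0.0234. Slc7a2, a carrier of arginine and other cationic amino acids, read 9.19, 9.02, 8.78, 9.06 and 8.64 in GFP livers and 8.54, 7.84, 7.74, 7.85 and 8.29 in Phf2 livers. The groups did not overlap, and it fell by 0.88 (SE 0.16, limma adjusted p = 0.00348). Slc1a2, a glutamate carrier of hepatocytes around the central vein, fell by 0.75 (SE 0.10, limma adjusted p = 0.000483). Slc38a4, a sodium-coupled carrier of neutral amino acids, fell by 0.39 (SE 0.09, limma adjusted p = 0.0133), and Slc16a10, a carrier of aromatic amino acids, was the fourth called lower. Slc1a4, a carrier of alanine, serine and cysteine, went the other way and read 4.85, 5.05, 5.05, 5.08 and 5.05 in GFP livers and 5.67, 5.54, 6.18, 6.01 and 5.90 in Phf2 livers. All Phf2 arrays lay above all GFP arrays, although the level was close to the median of the array, and Slc1a4 rose by 0.85 (SE 0.11, limma adjusted p = 0.000445).

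Of 14 regulators of amino acid breakdown, 4 were called lower and none higher, against the same 4.24% and 5.43% of all genes. Gcgr, the glucagon receptor, read 8.53, 8.45, 8.46, 8.34 and 8.58 in GFP livers and 8.16, 8.11, 7.99, 8.04 and 8.30 in Phf2 livers. The groups did not overlap, and it fell by 0.35 (SE 0.07, limma adjusted p = 0.00873). Klf15, a transcription factor that drives amino acid breakdown in fasting, fell by 0.55 (SE 0.11, limma adjusted p = 0.00886), with 7.26 ± 0.14 (SD, n = 5) in GFP and 6.71 ± 0.25 (SD, n = 5) in Phf2 livers. Creb3l3, a transcription factor anchored in the endoplasmic reticulum, fell by 0.30 (SE 0.07, limma adjusted p = 0.0165). Cebpa, the C/EBP factor of mature hepatocytes, fell by 0.32 (SE 0.09, limma adjusted p = 0.0497), close to the threshold. Hnf4a, a nuclear receptor of hepatocyte identity, had a log2 fold change of -0.09 (95% interval -0.27 to 0.09) and was not called, and neither was Nr3c1, the glucocorticoid receptor.

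**Figure D4:**
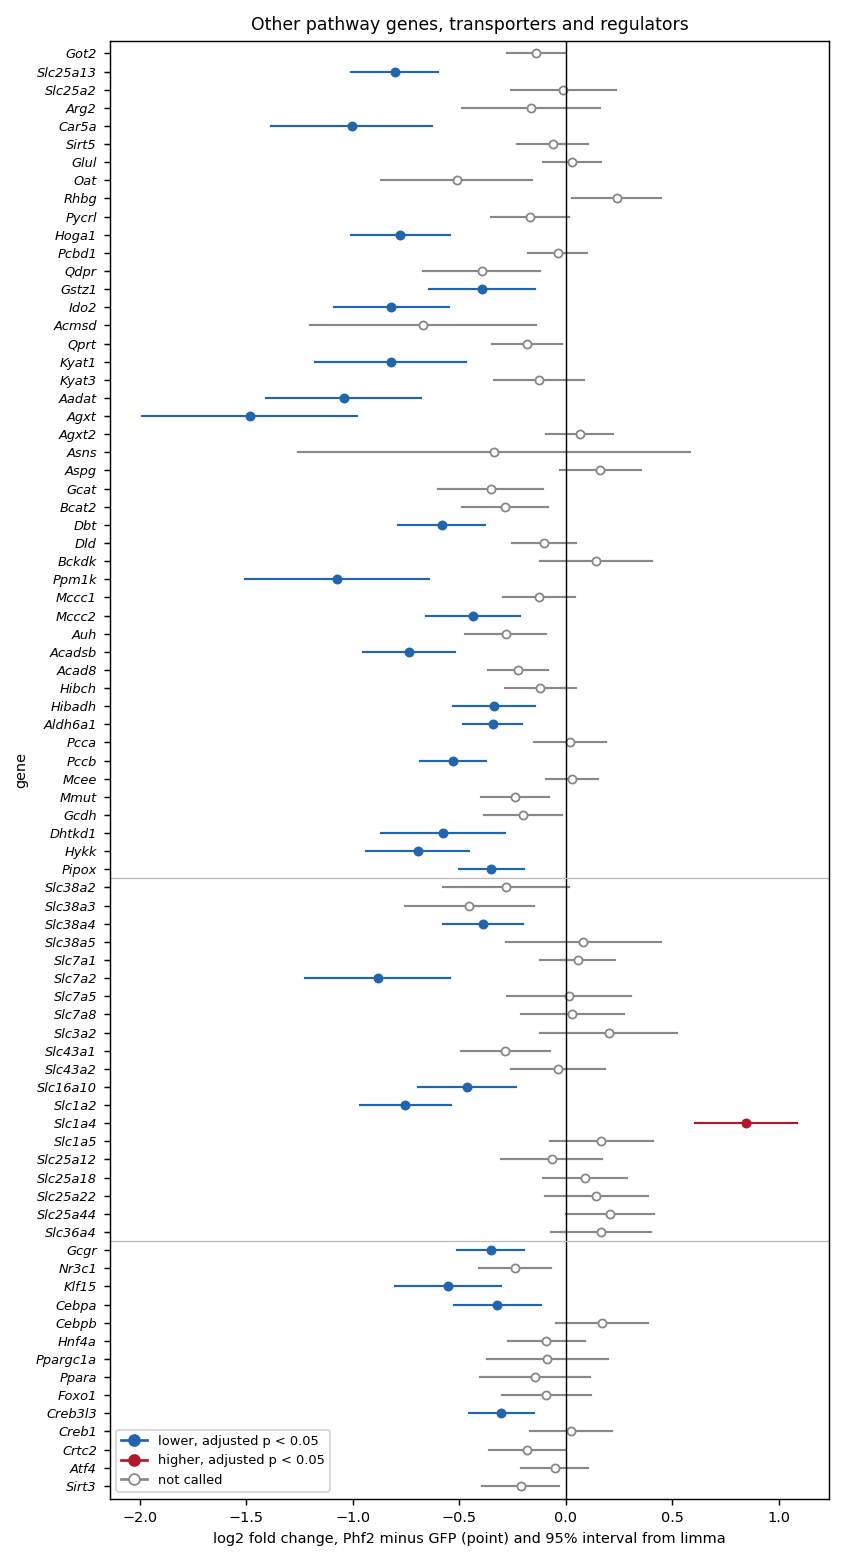
Log2 fold changes (horizontal axis, Phf2 minus GFP) with 95% intervals from limma for 46 other pathway genes, 20 transporters and 14 regulators, separated by grey lines; blue points were called lower, red higher, and open grey points were not called. The single red point is Slc1a4.

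Promoter sequence was looked at for the listed genes, whether called or not. RefSeq promoter windows of assembly GRCm38.p6, from 250 bases before to 50 after the start, were given for 25 of the 31 genes, in 27 windows. Letters of 5 motifs were searched on both strands, and a match is a description of the letters only. The E-box CACGTG, the core of sites bound by several helix-loop-helix factors, was in 1 of 27 windows, that of Slc25a15, against 7.15% of all 32851 promoters. The C/EBP letters TTGCNNAA were in 4 windows, those of Aass, Hal, Hgd and Prodh2, against 10.8% of all promoters, and the TATA box letters TATAAA in 4, those of Ftcd, Hal, Hgd and Tdo2, against 13.6%. The antioxidant response core TGACNNNGC was in 3 windows, those of Bckdhb, Prodh and Tdo2, against 12.4%, and the cyclic AMP response element TGACGTCA in none, against 1.79%. Of the 17 windows of genes called lower, 1 held the E-box, 3 the C/EBP letters, 2 the TATA box letters and 1 the antioxidant response core. The 250 bases before the start are printed for the 4 called genes with an E-box or C/EBP match. Called Prodh and Ftcd, with the antioxidant response core and the TATA box letters, are not printed. Matches are in capitals, with the E-box in Slc25a15 from its first base 77 before the start. In Hal the C/EBP letters lie 150 before and the TATA box letters 28 before the start. The C/EBP letters lie 22 before the start in Aass and 244 before in Prodh2. The matches in Aass and Prodh2 and the TATA box letters of Hal lie on the opposite strand, and the matches in capitals overlap no other match. The window of Slc25a15 is 1 of 2 for this gene, and the other held none of the motifs.
Slc25a15 (chr8:22398278-22398527, minus strand): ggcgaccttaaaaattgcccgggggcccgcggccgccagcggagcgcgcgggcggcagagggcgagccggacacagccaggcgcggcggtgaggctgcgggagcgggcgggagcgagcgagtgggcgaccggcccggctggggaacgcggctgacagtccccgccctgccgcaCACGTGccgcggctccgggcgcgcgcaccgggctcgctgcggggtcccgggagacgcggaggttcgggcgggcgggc
Hal (chr10:93488518-93488767, plus strand): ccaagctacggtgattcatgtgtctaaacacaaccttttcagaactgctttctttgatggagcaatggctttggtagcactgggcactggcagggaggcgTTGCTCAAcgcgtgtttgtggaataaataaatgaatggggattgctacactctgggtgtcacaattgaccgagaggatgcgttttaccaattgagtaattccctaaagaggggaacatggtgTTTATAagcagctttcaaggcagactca
Aass (chr6:23132987-23133236, minus strand): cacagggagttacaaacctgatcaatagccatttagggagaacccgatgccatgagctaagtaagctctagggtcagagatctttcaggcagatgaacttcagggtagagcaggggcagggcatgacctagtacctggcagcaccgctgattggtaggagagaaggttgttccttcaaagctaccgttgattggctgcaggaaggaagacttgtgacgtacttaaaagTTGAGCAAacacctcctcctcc
Prodh2 (chr7:30493408-30493657, plus strand): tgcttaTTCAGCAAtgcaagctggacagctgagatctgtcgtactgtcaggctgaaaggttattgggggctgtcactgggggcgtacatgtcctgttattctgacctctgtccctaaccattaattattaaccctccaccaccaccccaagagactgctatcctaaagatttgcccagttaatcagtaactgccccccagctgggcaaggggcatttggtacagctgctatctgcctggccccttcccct

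The fall was uneven among the Phf2 livers and shared across pathways. The mean of the 31 genes, set against the GFP mean, was -0.252, -0.617, -0.726, -0.653 and -0.130 in Phf2 replicates 1 to 5, and between -0.0579 and 0.0211 on the GFP arrays. Each Phf2 liver was thus below every GFP liver in this mean. In 26 of 31 genes Phf2 replicates 2, 3 and 4 were the 3 lowest Phf2 arrays, against 18.1% of all genes, a description with no test. The SD among Phf2 arrays was above that among GFP arrays in 29 of 31 genes, against 39.7% of all genes, with a median of 0.27 in Phf2 and 0.10 in GFP livers. Replicates 2, 3 and 4 were the lowest Phf2 arrays in the mean of each of the 8 pathways. The branched-chain mean stayed between -0.130 and 0.0755 on Phf2 arrays, close to its range on GFP arrays, and the alanine, aspartate and serine mean was at the GFP level in Phf2 replicate 5. Leaving out Phf2 replicate 2, 3 or 4 left 13 of the 31 genes called in each case, and leaving out Phf2 replicate 5 gave 28. Without any single GFP array the count was also lower, at 14 to 16.

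Markers of cell types were read beside these genes, and their counts stand against 4.24% of all genes called lower and 5.43% called higher, so that a single call in a list of 8 or 10 genes is near the share of all genes. Of 10 hepatocyte markers 8 were read, with log2 fold changes between -0.24 and 0.07, and Apoa1 and Fgb, a lipoprotein and a clotting gene, were called lower. The log2 fold change was negative in 6 of the 8. In 4 of the 8 every Phf2 array was below every GFP array, against 4.36% of all genes. The mean level of the 8 was 12.48 to 12.59 on GFP arrays and 12.37 to 12.51 on Phf2 arrays. Liver RNA was thus present on every array, but these levels do not give the share of other tissue in a sample. Of 11 T and NK cell markers 7 were called higher, with a mean of 4.93 to 5.27 in GFP and 5.64 to 6.37 in Phf2 livers. Among 10 macrophage markers 2 were higher and 3 lower, and among 10 stellate cell and fibroblast markers Lum alone was called, higher, with a list mean of 0.08, 0.45, 0.57, 0.35 and 0.09 over the GFP mean in Phf2 replicates 1 to 5. Of 8 endothelial markers 1 was called, higher, and none of 5 B cell and 5 bile duct markers were called. The part of these cells in the fall of the amino acid genes was not tested.

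Pancreatic acinar markers, which liver cells do not make, differed widely between arrays. The mean of the 10 that were read was 12.08, 8.14, 6.79, 5.95 and 7.57 on GFP arrays 1 to 5 and 5.72, 10.49, 9.76, 8.50 and 5.94 on Phf2 arrays 1 to 5, and none was called between the groups. Among Phf2 livers the 3 with higher pancreatic markers were replicates 2, 3 and 4, those with the lower amino acid genes. GFP replicate 1 had the highest pancreatic mean of all, and its amino acid genes lay at a mean of 9.72, against 9.65 to 9.73 on all GFP arrays. With the pancreatic mean as a covariate, an alternative chosen after seeing the data, 25 of the 31 genes were called lower, among them all 21. Without the 3 arrays highest in these markers (GFP replicate 1 and Phf2 replicates 2 and 3), 2 genes were called, Glud1 and Hal, while 28 of 31 kept a negative log2 fold change and 19 had an unadjusted p under 0.05, with a median log2 fold change of -0.34. Only 4 GFP and 3 Phf2 arrays entered that fit. The Phf2 gene itself, through the feature that carries its symbol, read -0.05 (SE 0.08, limma adjusted p = 0.751) on the scale of log2 fold changes. The stretch of transcript behind this feature, and so whether the viral insert is read, is unknown, and the value is no check of the labels.

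**Figure D5:**
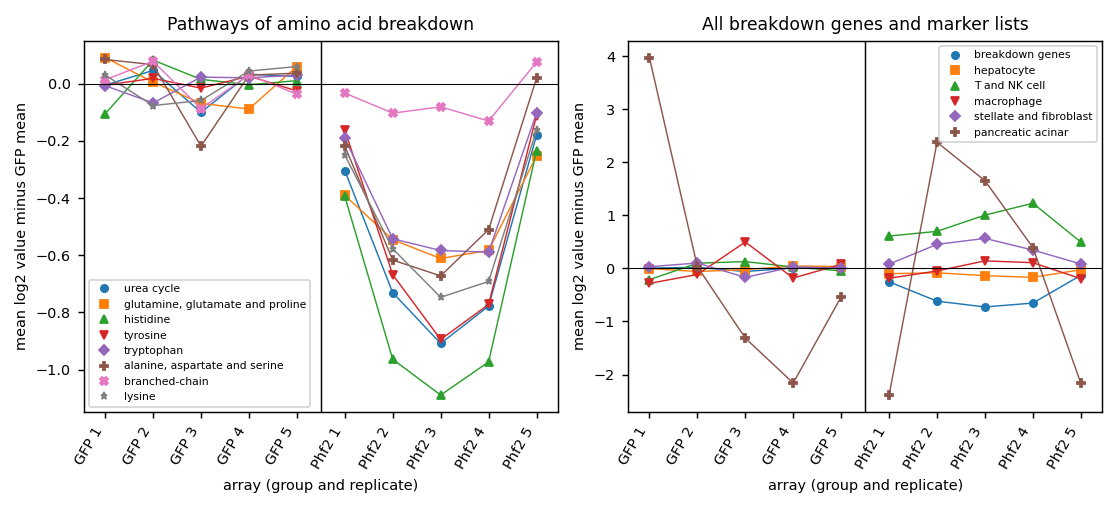
Mean log2 RMA value minus the mean of the 5 GFP arrays, on each array, for the 8 pathways (left) and for all 31 breakdown genes with 5 marker lists (right); lines join the points of 1 list and imply no order of the arrays. The pathways are lowest in Phf2 replicates 2, 3 and 4, the branched-chain genes by the smallest margin, and the pancreatic markers range from -2.39 to 3.98.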

How the data were processed

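Liver RNA of 5 Phf2 and 5 GFP mice was profiled on 1 array each, and samples were grouped by the condition and number in their labels. The values deposited by the authors are log2 values from RMA (Bioconductor) for 35556 features, and RMA and Partek appear, with no version, in the submitters' processing notes. The paper names a human array and another RNA kit than the labels, but the features are numbered as on a mouse array. RMA brings arrays to a similar level (medians 5.06 to 5.18), so that values are relative.

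Features were named by the platform annotation, with 21698 of 21789 single-symbol features matched by gene number to GRCm38.p6 names. No use was made of 1621 features with several symbols and 12146 with none, and 999 genes had several features, of which that with the highest mean was kept. No genome build is stated for the files, so no gene coordinates are given from them. The comparison used lmFit and eBayes of limma 3.58.1 (R 4.3.3) without covariates, and p-values were adjusted over the 19938 genes by the Benjamini-Hochberg method. Two-sided exact permutation tests of single genes could not go below 0.00794 with 5 against 5 arrays, and gave this value in the 14 genes whose groups did not overlap. The pipeline was tested on simulated data with independent arrays and the same SD in both groups. Such data do not hold the unequal SDs of most listed genes, so the test does not cover these.

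The listed genes, the other lists and the markers were chosen with earlier results of these data known. All listed genes are described, and of the other lists up to 4 called genes with the smallest p in each pathway or list, plus Glul, Got2, Slc25a13, Oat, Gcgr, Hnf4a and Klf15, and 1 further item of this rule is not reported here. Mccc2, Hibadh, Aldh6a1, Slc16a10 and genes named only as not called fall outside this rule. Settings tried besides were leaving out each array, other thresholds, the replicate number as a block, averaging the features of a gene, median centring, quantile normalization, a filter on dim genes (lowest 25%), an intensity trend with a robust prior, and the methods' t-test. Array weights, the pancreatic covariate and the fit without 3 arrays were chosen after seeing the data. P-values set the difference between the groups against the spread between these mice, which limma moderates by sharing it over all genes.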

Additional observations from a re-analysis of the deposited data

Results flagged for a closer look

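Single arrays that stood apart from the other 4 of their group were looked for in 116 groups of 5 arrays, those of the listed genes and of the other named genes. A gap to the nearest array above 0.71 of the range of the group was found in 3 of them, and chance alone gives about 1 in 20. Slc1a4 read 4.85 in GFP replicate 1 and 5.05 to 5.08 on the other GFP arrays. Aadat read 8.98 in GFP replicate 3 and 9.26 to 9.36 on the others. Glul read 11.70 in GFP replicate 3 and 11.51 to 11.55 on the others. None of the 3 is among the 31 listed genes, and the gap in Slc1a4 and Aadat was smaller than the difference between the groups.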

How the results depend on the processing

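The count of listed genes called lower, 21, stayed within 1.5 times under the intensity trend, the filter on dim genes, median centring, a further quantile normalization, the mean of the features of a gene, array weights, the pancreatic covariate and an adjusted p under 0.10, and none was called higher under any setting. It was 6 with the methods' t-test after Benjamini-Hochberg adjustment (Slc25a15, Glud1, Prodh2, Hal, Haao and Aldh7a1) and 6 at an adjusted p under 0.01, against 10 past the thresholds of the study by either test. Leaving out each array in turn gave 13 to 28 listed genes, 22 to 34 of the other pathway genes, transporters and regulators (26 with all arrays) and 6 to 13 past the thresholds of the study (10 with all arrays), the 6 being without Phf2 replicate 3. Of the 21, 13 were called in every such fit. Without the 3 arrays highest in pancreatic markers these counts were 2, 10 and 2, in a fit with fewer arrays, and over all genes 230 lower and 365 higher, against 846 and 1083. Array weights, the pancreatic covariate and this last fit were chosen after seeing the data. With the replicate number as a block, 18 of the 21 were called, without Cps1, Ftcd and Kmo. Deviations of arrays with the same number correlated between -0.291 and -0.0421, and no array was closest to its own number. These values show no pairing by number, but they cannot exclude a shared batch, which the labels do not give. Log2 fold changes turned sign in 2 genes near 0. Bckdhb gave -0.011 with median centring, -0.0042 with quantile normalization, and -0.032 to 0.057 without 1 array, with -0.012 and -0.014 without GFP replicates 1 and 5 and -0.028 and -0.032 without Phf2 replicates 1 and 5. Gpt2 gave -0.0069 without GFP replicate 3 and up to 0.12 without another array. Of 620 values of single genes, 495 kept their direction and side of the threshold, 96 lost the call and 22 gained one. The causes were not tested. Precision is limited by 5 arrays in each group.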
